A study of Oryza sativa Japonica Group with 5 samples.

Results

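A set of rice loci was expressed in the leaf of wild type plants and gave next to no signal in the leaf of the mutant pls4. Its members are the loci named by Os identifiers on chromosomes 1 to 5 and 7 to 10 that had an FPKM of at least 5 in each wild type library and at most 0.5 in both pls4 libraries. FPKM are fragment numbers divided by the length of the gene and by the size of the library. The rule found 135 loci among the 28378 listed on these 9 chromosomes, where 9639 loci had an FPKM of at least 5 in each wild type library; the files hold 36475 loci in all. Chromosomes 6, 11 and 12 were left out, and with them the same rule finds 231 loci. The members were chosen by the measured FPKM of all 5 libraries, so the contrast between the genotypes is given for them as a description, without a test.

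The data are leaf RNA of Oryza sativa, Japonica Group, from wild type plants (genotype WT, treatment labelled "Non knockdown", 3 libraries) and from the mutant pls4 (treatment labelled "knockdown", 2 libraries), in a study of susceptibility to sheath blight. Every library is labelled as leaf, with mesophyll cell as both cell type and cell line. The labels give neither the age of the plants, nor the altered gene, nor the background in which pls4 arose, nor whether libraries of a genotype came from separate plants. The spread between libraries may therefore be technical in part.

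A rice identifier of this form gives the chromosome, and its number follows the place of the locus along that chromosome. Neighbouring loci thus carry neighbouring numbers. Numbers were first given in steps of 100, and loci added to the annotation later received numbers in between. A transcript can be missing from one of 2 related plants because its gene is absent, because its gene is not transcribed there, or because its sequence differs so much that reads are not assigned to it, and FPKM values cannot tell these apart. In whole leaf RNA, fewer cells of a type and less RNA per cell cannot be told apart either. No member is paired with a gene name or function in the sources used here, so the loci are called by their identifiers.

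The labelled tissue was checked with a few marker genes. The mesophyll markers Lhcb1 (Os01g0600900), a light-harvesting protein, and RBCS2 (Os12g0274700), the Rubisco small subunit, averaged 10800 and 14013 FPKM in wild type and 4997 and 5900 in pls4. The mesophyll markers RCA (Os11g0707000), which encodes Rubisco activase, and PORA (Os04g0678700), a protochlorophyllide reductase, averaged 822 and 379 FPKM in wild type and 162 and 71.0 in pls4. All 4 were called lower in pls4 (limma, adjusted p from 2.66e-06 to 0.00823). The markers of the secondary wall averaged 0.493 to 1.29 in wild type and 3.42 to 5.54 in pls4 (CESA4, CESA7, CESA9 and BC1). The markers of dividing cells averaged 8.83 and 15.8 (CDKB1;1), 14.65 and 12.5 (PCNA) and 1.26 and 0.135 FPKM (MCM2) in wild type and pls4. The root gene LSI1 averaged 13.5 and 18.4 and the seed gene GLUA2 4.31 and 4.34. None of the 13 markers averaged 0 in either genotype and none is a member. For most of them the rule left no choice. RBCS2, RCA and MCM2 lie on chromosomes that were left out. CESA4, CESA7, CESA9, BC1 and GLUA2 were under 5 FPKM in each wild type library. The part of any such cell type in the lost transcripts was not tested. Between 18393 and 18538 loci per library had an FPKM of at least 1, and FPKM summed to between 736527 and 758853. Total depth is unknown. If low values are multiples of the value of 1 fragment, which was not checked, their most frequent ratio put wild type replicate 2 at about 1.30 times the depth of replicate 1, and the others at 1.00 to 1.05 times.

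The highest members were abundant transcripts of the wild type leaf. Os10g0506900 stood at 293, 268 and 266 FPKM in wild type replicates 1, 2 and 3 and was listed at 0 in both pls4 libraries. Os09g0343200 stood at 211, 138 and 154 FPKM in wild type and at 0 and 0.06 in pls4. Os09g0319701 stood at 139, 141 and 157 FPKM in wild type and was listed at 0 in both pls4 libraries. In each of these loci the lowest wild type library was far above both pls4 libraries, as the rule requires. Os03g0382350 stood at 158, 143 and 133 FPKM against 0.06 and 0.12. Os05g0202500 stood at 115, 163 and 115 FPKM against 0.02 and 0, with wild type replicate 2 above the other two. Os01g0361000 stood at 100.8, 123.5 and 109 FPKM against 0 and 0.04. These 6 loci were the members with a wild type mean of at least 100 FPKM, and they lie on 5 chromosomes.

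The next 9 members by wild type mean lay between 41.2 and 94.0 FPKM. Os01g0539400 stood at 95.8, 96.0 and 90.1 FPKM in wild type and at 0.18 and 0.14 in pls4, so a trace was listed in both mutant libraries. Os09g0309900 stood at 80.1, 86.7 and 85.6 FPKM in wild type against 0.10 and 0. Os03g0575500 stood at 68.3, 64.9 and 71.1 FPKM in wild type and at 0 in both pls4 libraries. The same complete loss was listed for Os09g0340400 (mean 54.6 ± 2.2 FPKM, SD, n = 3), Os09g0365100 (50.4 ± 1.7), Os10g0489650 (48.5 ± 10.2) and Os03g0426350 (43.8 ± 4.6). Os05g0193800 (45.1 ± 3.9 FPKM) and Os04g0340800 (41.2 ± 4.0) were at 0 in pls4 replicate 1 and at 0.06 and 0.02 in replicate 2. Of the 15 highest members, 5 lie on chromosome 9 and 3 on chromosome 3.

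**Figure D1:**
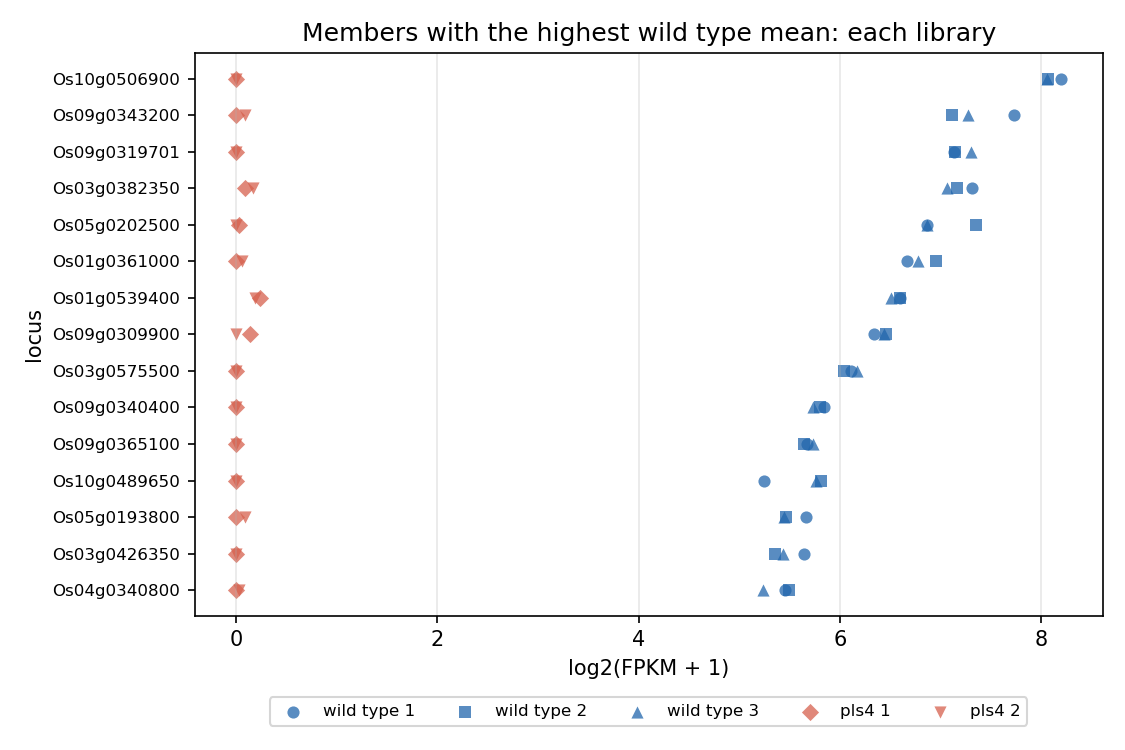
FPKM of the 15 members with the highest wild type mean, on a log2(FPKM + 1) axis, with 1 point per library (blue, 3 wild type; red, 2 pls4). All pls4 points lie at or near 0, and the wild type points of a locus lie close together, with Os09g0343200, Os05g0202500 and Os10g0489650 as the widest.

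Most members were modest transcripts. Their wild type means ran from 5.33 to 276 FPKM with a median of 12.02 and quartiles of 8.31 and 21.03. The other 9504 loci expressed in wild type had a median of 18.0 and quartiles of 10.2 and 37.3. The members were thus weighted to the low end, with 54 of the 135 under a mean of 10 FPKM and 11 at 50 or more. Members made up 2.30% of the expressed loci with a wild type mean of 5 to 10 FPKM (54 of 2352), 1.49% of those at 10 to 20 (43 of 2888) and 1.03% of those at 20 to 50 (27 of 2628). At 50 to 100 FPKM they made up 0.533% (5 of 938) and at 100 or more 0.720% (6 of 833). The wild type minimum of 5 FPKM cuts this distribution at its low end. A weaker transcript also has to fall less to reach the pls4 maximum of 0.5.

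The members varied between wild type libraries about as much as other loci did. The coefficient of variation over the 3 wild type libraries had a median of 7.34% for the members and of 7.34% for the other expressed loci. Only 3 members differed by a factor of 2 or more between wild type libraries. Os02g0807600 was the widest, at 7.43, 18.6 and 20.7 FPKM, followed by Os04g0369100 at 16.5, 7.36 and 10.1 and Os05g0500101 at 6.08, 9.57 and 12.3. All 3 were still at 0.26 FPKM or less in both pls4 libraries.

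In pls4, 90 members were listed at 0 in both libraries, 22 at 0 in 1 of them and 23 above 0 in both. An FPKM of 0.1 was exceeded in neither library at 112 members. A listed 0 means that no fragment was assigned, and how many fragments an FPKM of 0.5 stands for is not known without gene lengths and depth. On the log2(FPKM + 1) scale the difference between pls4 and wild type ranged from -8.11 to -2.15 with a median of -3.66, while over all 19637 tested loci the median was 0.15. All 135 members passed the filter for testing and were called at least 2-fold lower (limma, Benjamini-Hochberg adjusted p under 0.05), as were 7.21% of all tested loci (7.11% were called at least 2-fold higher); the rule used this contrast, so nothing is read from the members' count.

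Loci were found at each level between silence and 5 FPKM in pls4, while most members were listed at 0. Of the 9639 loci expressed in wild type, 1.4% were members, 20 had a pls4 maximum between 0.5 and 1 FPKM, 44 between 1 and 2, and 196 between 2 and 5. The remaining 9244, or 95.9%, reached more than 5 in at least 1 pls4 library. The 90 loci at 0 in both pls4 libraries thus outnumbered the 45 members with any listed signal and the 20 loci just above the limit.

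**Figure D2:**
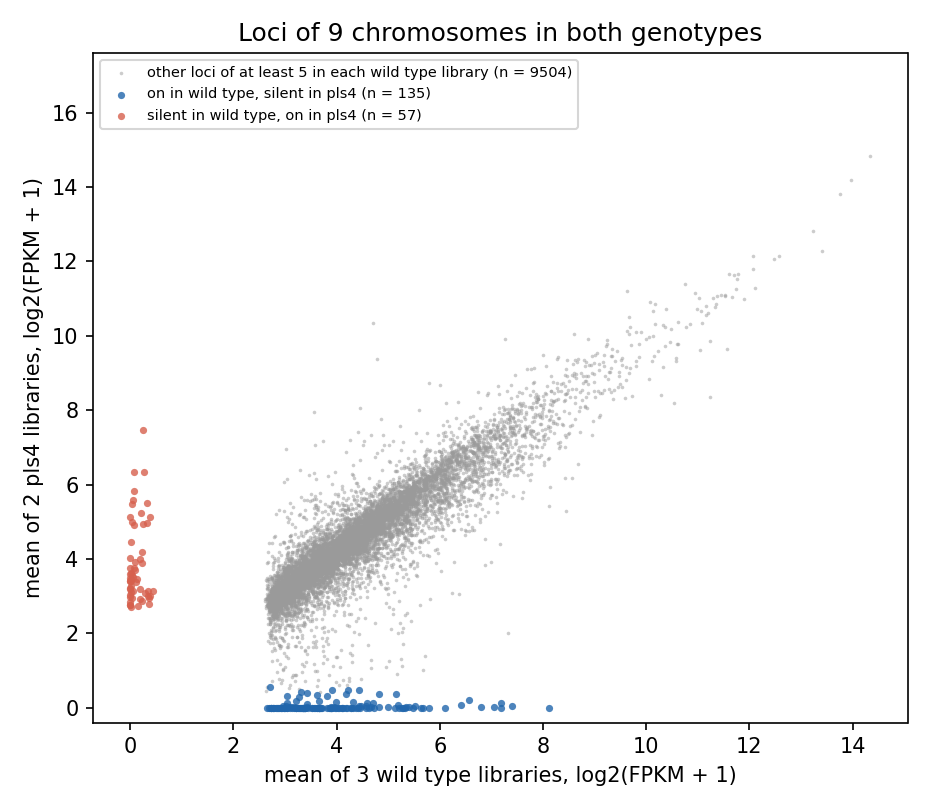
Mean FPKM of the 3 wild type libraries against the mean of the 2 pls4 libraries, both on a log2(FPKM + 1) scale, for the loci of the 9 chromosomes. The 135 members (blue) lie along the bottom, the 57 loci with the opposite pattern (red) along the left edge, and the other 9504 loci of at least 5 FPKM in each wild type library (grey) along the diagonal with a sparse band between.

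The loci nearest to each limit of the rule show what it kept and left out. Just inside the wild type limit, Os04g0487000 stood at 6.18, 5.72 and 5.09 FPKM and Os01g0189700 at 5.10, 5.41 and 5.47, both listed at 0 in both pls4 libraries. Just outside it, Os08g0122700 stood at 4.94, 9.56 and 6.56 and Os01g0149400 at 4.85, 6.38 and 5.53, also with 0 in both pls4 libraries. Both pairs were equally silent in the mutant, and which side they fall on rests on 1 wild type library. Just inside the pls4 limit, Os05g0333600 stood at 5.37, 5.71 and 5.56 FPKM in wild type and at 0.45 and 0.50 in pls4, and Os08g0476700 at 31.3, 37.95 and 35.2 against 0.12 and 0.48. Just outside it, Os10g0328700 stood at 22.9, 5.66 and 6.66 FPKM against 0.18 and 0.51, and Os10g0470100 at 5.66, 5.02 and 5.04 against 0.52 and 0.23. Os10g0328700 is carried by wild type replicate 1, and Os08g0476700 fell far more steeply than Os05g0333600.

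Libraries of the same genotype hardly differed in this way. In the 8 ordered pairs of libraries within a genotype, 0 or 1 locus of these chromosomes had an FPKM of at least 5 in one library and at most 0.5 in the other. With a wild type library on and a pls4 library off, the number was 157 to 168 over 6 pairs. In the opposite direction it was 71 to 93. With the whole rule turned round, 57 loci were at 0.5 FPKM or less in each wild type library and at 5 or more in both pls4 libraries, against the 135 members. These 57 had a median pls4 mean of 10.005 FPKM, near the members' median of 12.02 in wild type.

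The members were spread over all 9 chromosomes but unevenly. Chromosome 1 held 38 members, or 2.29% of its 1660 loci expressed in wild type, and chromosome 9 held 17, or 2.67% of 637. Chromosome 10 held 10 members (1.76% of 569), chromosome 5 held 13 (1.32% of 986) and chromosome 8 held 10 (1.30% of 770). Chromosome 3 held 21 members (1.23% of 1709), chromosome 2 held 17 (1.17% of 1455) and chromosome 4 held 7 (0.725% of 966). Chromosome 7 stood lowest with 2 members, Os07g0110650 and Os07g0486000, of 887 expressed loci (0.225%). Against the 1.4% over all 9 chromosomes, chromosomes 1, 9 and 10 lay above and the other 6 below. Chromosome 7 was not low in loci of the opposite pattern, with 9 of the 57, while chromosome 5 held 13 members and 1 such locus. Median wild type means of the members ran from 8.41 FPKM on chromosome 10 to 17.4 on chromosome 9.

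Along the chromosomes, long stretches of expressed loci held no member. On chromosome 1 the last member was Os01g0728400, at 63.4% of the listed loci, and the 670 loci expressed in wild type after it held none. On chromosome 4 none followed Os04g0487000 (543 expressed loci), on chromosome 7 none followed Os07g0486000 (473), and on chromosome 9 none followed Os09g0467700 (272). On chromosome 10 the pattern was turned round, as the 225 expressed loci before Os10g0432200, at 49.5% of the list, held no member. Chromosome 3 had 5 of its 21 members in the first part of its list up to the midpoint and lacked any in its first 395 expressed loci. Chromosome 2 lacked any in its first 339. In consecutive blocks of 100 listed loci, 199 of 278 blocks held no member, and 11 blocks with 3 or more held 42 members together.

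**Figure D3:**
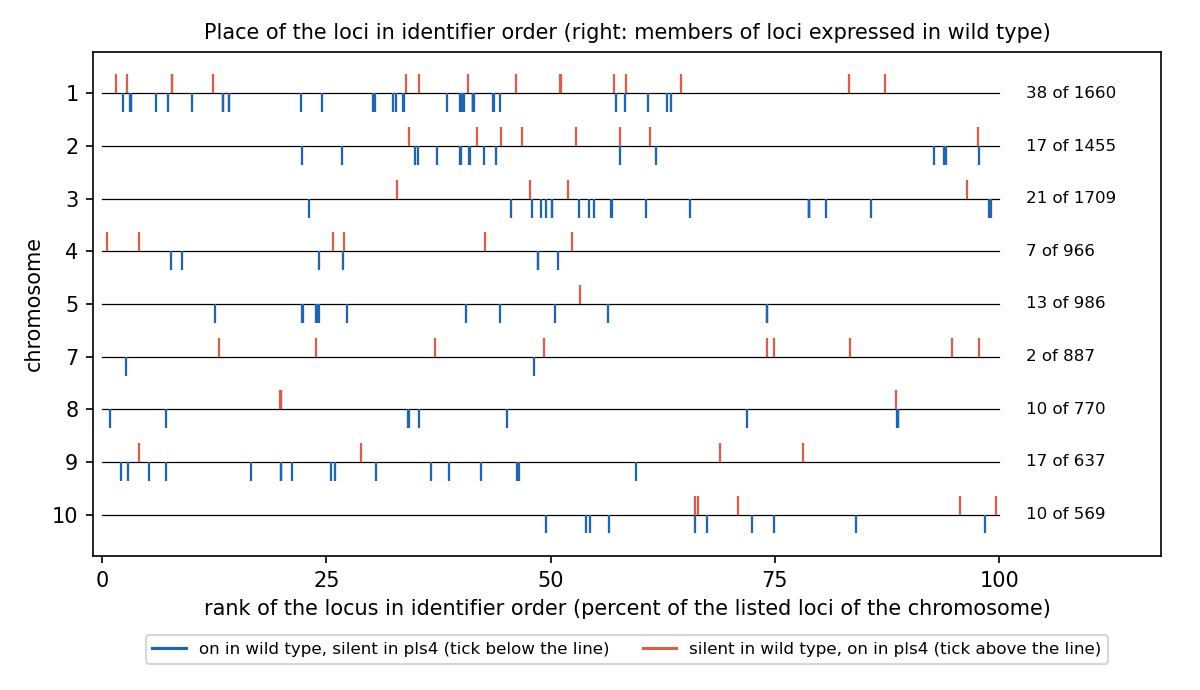
Place of each locus in identifier order, as the percentage of the listed loci of its chromosome, for the members (blue, below each line) and the loci with the opposite pattern (red, above). The numbers at the right give the members among the loci expressed in wild type, from 2 of 887 on chromosome 7 to 38 of 1660 on chromosome 1; the blue ticks end at or before 63.4% of the list on chromosomes 1, 4, 7 and 9.

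Runs of silent neighbours were short. In the order of all listed loci, 111 of the 135 members had no member directly beside them, and the other 24 (17.8%) stood in 11 runs, 9 pairs and 2 runs of 3. Many listed loci are not expressed in leaf, so runs were also counted among the loci expressed in wild type alone. In that order 43 members (31.9%) stood in 18 runs, with 14 pairs, 2 runs of 3, 1 of 4 and 1 of 5, and 92 members stood alone. The 57 loci of the opposite pattern formed 1 run, of 3 loci, in the order of all listed loci.

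The longest run, 5 members in the order of expressed loci, lay on chromosome 1. It began with Os01g0537250 (15.7, 9.55 and 9.58 FPKM in wild type, 0 in both pls4 libraries) and Os01g0538000 (38.4, 38.6 and 35.7 against 0 and 0). It went on with Os01g0539400, described above, Os01g0540800 (6.71, 8.46 and 7.96 against 0.01 and 0.01) and Os01g0541000 (23.2, 26.0 and 23.7 against 0.04 and 0). The run thus held members of very different wild type levels, while their low pls4 values follow from the rule. A run of 4 followed nearby with Os01g0552500 (9.62, 9.74 and 8.97 FPKM against 0 and 0), Os01g0553200 (5.51, 6.12 and 5.83 against 0 and 0), Os01g0553400 (5.98, 5.87 and 5.90 against 0 and 0) and Os01g0553600 (8.34, 8.62 and 7.30 against 0 and 0.02). Between the runs stood Os01g0544700, at 15.4, 14.7 and 13.9 FPKM in wild type and 0 in both pls4 libraries.

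These 10 loci fell into the window of 100 listed loci with the most members, where they made up 32.3% of the 31 loci expressed in wild type. The window was found by its count, so its share is a description. Between its first and last member lay 74 listed loci. Of the others, 26 were at 0.5 FPKM or less in all 5 libraries and 16 were expressed in wild type, of which 15 reached at least 5 FPKM in both pls4 libraries. Those 16 changed by -0.93 to 1.09 on the log2 scale. Os01g0550300 stood at 524, 447 and 441 FPKM in wild type and at 347 and 352 in pls4, and Os01g0550000 at 58.9, 56.9 and 57.8 against 66.7 and 65.6 (both chosen after their values were seen). Silence in this stretch was therefore not continuous. Weaker loci joined it: Os01g0539900 went from 3.20, 3.67 and 3.47 FPKM to 0 in both pls4 libraries and Os01g0544200 from 3.38, 2.71 and 2.69 to 0. Os01g0548900 had the opposite pattern, with 0 in each wild type library and 14.99 and 15.3 FPKM in pls4.

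**Figure D4:**
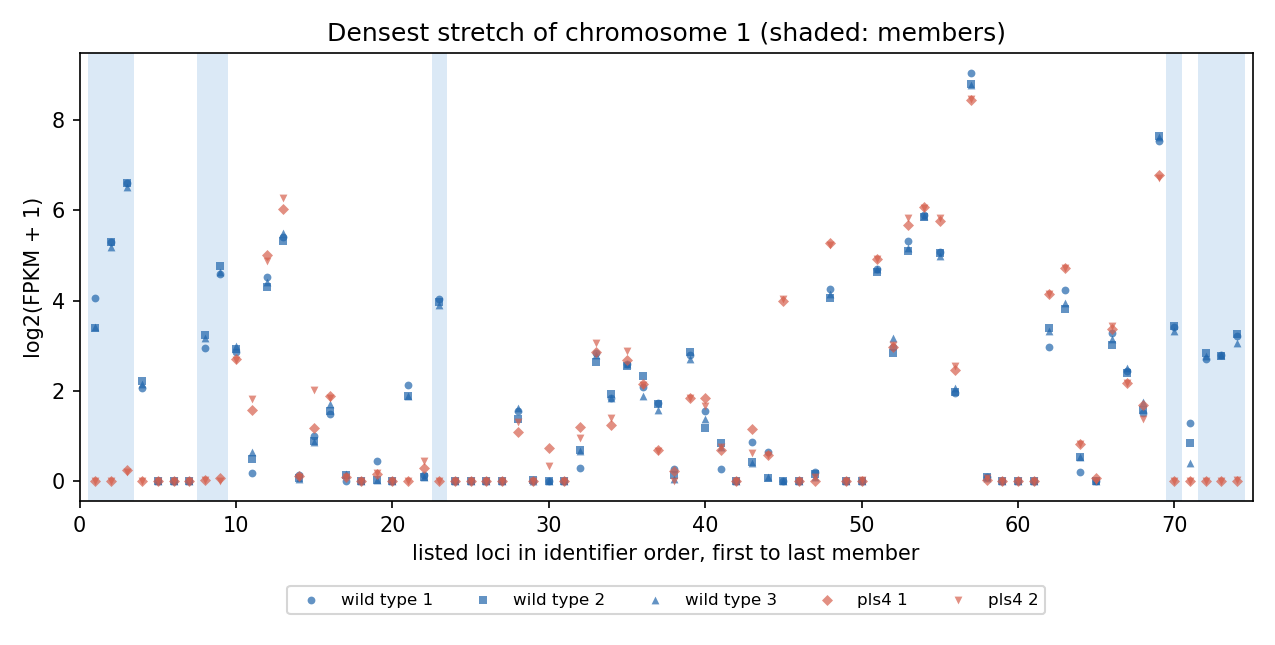
Values of the 74 listed loci from Os01g0537250 to Os01g0553600 in identifier order, on a log2(FPKM + 1) axis, with 1 point per library (blue, 3 wild type; red, 2 pls4) and the 10 members shaded. Blue and red points separate in the shaded loci and lie close together in most of the expressed loci between them.

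Other dense places held 4 or 5 members in 100 listed loci. On chromosome 5, Os05g0192700 (23.6, 26.6 and 26.7 FPKM in wild type, 0 in both pls4 libraries) and Os05g0193800 formed a pair, and Os05g0202500, Os05g0202600 (6.73, 8.92 and 9.12 against 0 and 0.27) and Os05g0203900 (11.4, 8.76 and 9.04 against 0.40 and 0.24) a run of 3. On chromosome 3, Os03g0382350 was followed by Os03g0390900, Os03g0395700 and the pair Os03g0400600 and Os03g0400700. In that pair Os03g0400600 stood at 10.5, 10.9 and 9.95 FPKM against 0 and 0, and Os03g0400700 at 15.2, 19.2 and 27.2 against 0.34 and 0.42. Near the start of chromosome 1, Os01g0117200 (12.3, 7.22 and 8.97 FPKM), Os01g0117300 (9.81, 8.87 and 8.88) and Os01g0117600 (19.9, 17.4 and 17.8) made the other run of 3, all listed at 0 in both pls4 libraries. In each of these stretches most expressed loci kept their expression, at 5 FPKM or more in both pls4 libraries. These were 27 of 32 in the chromosome 5 window, 28 of 34 in the chromosome 3 window and 17 of 22 in the window near the start of chromosome 1. Loci beside the run in the last of these fell too. Os01g0117100 went from 10.8, 9.09 and 8.72 FPKM to 0.56 and 0.74, and Os01g0117266 from 6.83, 3.98 and 5.53 to 0 in both pls4 libraries.

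In the 9 pairs of the listed order the 2 numbers lay 50 to 900 apart. Os04g0477900 and Os04g0478000 stood at 37.4, 37.3 and 39.0 FPKM and at 22.8, 19.0 and 21.9 in wild type, and at most at 0.05 in pls4. Os01g0184100 and Os01g0184200 stood at 18.5, 22.4 and 19.8 and at 14.9, 14.2 and 14.3 FPKM, and at most at 0.01 in pls4. Os02g0477100 and Os02g0477300 stood at 13.5, 14.3 and 13.6 and at 37.8, 41.1 and 40.0 FPKM, and at most at 0.02 in pls4. In the pairs named so far the 2 loci differed in wild type level, and their silence in the mutant follows from the rule. In the pair Os03g0744100 (7.82, 10.05 and 8.67 FPKM) and Os03g0744200 (14.5, 8.12 and 11.6) the wild type values overlapped. Whether reads of overlapping or duplicated loci were shared between such neighbours is not known, since no source used here gives the counting rule. Some identifiers do carry identical values. Os05g0333500 and Os05g0334000, on either side of the member Os05g0333600, both stood at 34.1, 40.6 and 39.2 FPKM in wild type and at 36.4 and 33.3 in pls4.

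The nearest loci expressed in wild type usually stayed expressed in pls4, though less often than other expressed loci. Such a locus need not be adjacent, since listed loci that are not expressed were passed over. The nearest such locus on each side of every member, members left aside, gave 217 loci. Os05g0333500 and Os05g0334000, which have identical values, are counted separately among them. Of these, 183 (84.3%) had an FPKM of at least 5 in both pls4 libraries, against 95.7% of all 9504 expressed loci that are not members. At 96 of the 135 members both flanking loci stayed expressed, at 37 only 1 did and at 2 neither. Members of a run share their flanking loci, which can lie beyond other members, so these counts are not independent. The mean in pls4 was under 10% of the wild type mean at 9 of the 217 neighbours (4.15%) and at 0.452% of all expressed loci that are not members. The ratio of the pls4 mean to the wild type mean had a median of 100.9% over the neighbours and 113% over all of them. Where the identifiers of a member and its nearest expressed neighbour lay within 100 of each other, 22 of 32 neighbours stayed expressed. Of the 239 listed loci directly beside a member, 53 (22.2%) stayed expressed, against 32.2% of all listed loci that are not members. Another 13 (5.44%) were expressed in wild type but under 5 FPKM in pls4, against 1.43%. At most 0.5 FPKM in all 5 libraries was found at 104 (43.5%), against 37.8%.

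The highest members showed both situations. Os10g0506900 is followed in number by Os10g0507000 (1.78, 1.76 and 1.63 FPKM in wild type, 0.89 and 0.82 in the mutant; log2 fold change -0.55 ± 0.11 SE, limma, adjusted p = 0.00603, a call lost without pls4 replicate 2). It is preceded by Os10g0506800 (6.57, 7.28 and 7.96 against 6.72 and 5.62; log2 fold change -0.21 ± 0.12 SE, adjusted p = 0.190 by limma). The next locus after it that was expressed in wild type, Os10g0507500, fell from 9.61, 10.6 and 8.55 FPKM to 1.29 and 1.40 (log2 fold change -2.17 ± 0.12 SE, limma, adjusted p = 9.92e-06). The most abundant member was thus followed by loci that passed the test for a decrease and preceded by one that did not pass. Os09g0343200 follows another member, Os09g0340400, in the order of loci expressed in wild type. Before both lies Os09g0339000, which fell from 22.4, 15.2 and 18.9 FPKM to 1.46 and 1.27 (log2 fold change -3.05 ± 0.16 SE, limma, adjusted p = 8.06e-06). On the other side of Os09g0343200, Os09g0343400 fell from 1.84, 1.02 and 0.96 FPKM to 0 in both pls4 libraries (limma, adjusted p = 0.00194). Here the nearest tested loci that are not members fell on both sides. The next expressed locus after Os09g0343200, Os09g0344800, averaged 45.1 FPKM in wild type and 41.7 in pls4 (limma, adjusted p = 0.391).

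Elsewhere a silent locus stood between loci that were still detected in pls4. Os03g0382350 lies between Os03g0381500 (3.49, 3.20 and 3.96 FPKM in wild type, 2.48 and 2.35 in the mutant; log2 fold change -0.41, limma, adjusted p = 0.0237) and Os03g0383800 (57.5, 54.0 and 57.5 against 67.6 and 70.7; 0.29, limma, adjusted p = 0.0163). The call of Os03g0381500 did not hold when loci were tested unfiltered, when the replicate number was a block, or when wild type replicate 3 or any pls4 library was left out. That of Os03g0383800 did not hold under either other scaling, with the number as a block, or when pls4 replicate 2, wild type replicate 2 or wild type replicate 3 was left out. Os09g0319701 lies between Os09g0318600 (1.89, 2.00 and 2.06 FPKM against 2.13 and 2.48) and Os09g0320201 (0.90, 0.80 and 0.96 against 1.82 and 1.11), neither of which passed the test. Both are weak loci. The next expressed locus after it, Os09g0321500, fell from 10.2, 10.6 and 9.93 FPKM to 4.70 and 3.44 (log2 fold change -1.16 ± 0.13 SE, limma, adjusted p = 0.000328). The expressed locus before it, Os09g0315800, averaged 12.3 FPKM in wild type and 12.8 in pls4 (limma, adjusted p = 0.770). Os05g0202500 lies between Os05g0200500, at 10.5, 9.74 and 9.37 FPKM against 10.7 and 10.8, and Os05g0202550. Os05g0202550 was listed at 0 in each wild type library and at 4.67 and 3.29 FPKM in pls4 (limma, adjusted p = 2.51e-05), so neighbours with a number 50 apart went in opposite directions.

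The neighbours were also set beside the test across all loci. Loci silent in pls4 from 5 FPKM or more in each wild type library are members and so enter neither the neighbours nor their background. Fitted with limma on log2(FPKM + 1) with a Benjamini-Hochberg adjustment over all 19637 tested loci, 753 of the 15398 tested loci of these chromosomes that are not members were called at least 2-fold lower (4.89%) and 1011 at least 2-fold higher (6.57%). Of the 226 nearest tested neighbours of members, 57 were called at least 2-fold lower (25.2%) and 30 at least 2-fold higher (13.3%). Both shares were above those of the background, and the lower calls more so. The share of lower calls was 11.9% (27 neighbours, against 2.04%) with a pseudocount of 5, and 13.8% (33 of 239, against 2.46%) without a filter on low values. With libraries brought to the same median ratio, a scaling which moved the median change of all tested loci from 0.15 to 0.00, 58 neighbours were lower. That scaling also moved the calls over all loci from 1397 higher and 1415 lower to 1113 higher and 1703 lower. Without a limit on size, 84 neighbours were called lower (37.2%, against 16.0%) and 60 higher (26.5%, against 34.2%).

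The share of lower calls was smaller at greater distance from a member. Counted in steps along the tested loci, loci 2 steps from the nearest member were called at least 2-fold lower in 9.43% of cases (20 of 212), and loci 3 to 5 steps away in 10.5% (62 of 593). The share was 7.44% at 6 to 10 steps (68 of 914), 7.23% at 11 to 20 steps (102 of 1411) and 3.69% farther away (444 of 12042). The share of calls at least 2-fold higher went from 13.3% at 1 step to 8.96% at 2 steps and 7.59% at 3 to 5 steps. It was 7.22% at 6 to 10 steps, 7.23% at 11 to 20 steps and 6.22% at 21 steps or more. Up to 20 steps the higher calls too were thus above their background of 6.57%. The share of lower calls was thus above the 4.89% of the background up to 20 steps from a member, and highest at 1 step. Untested loci are not counted as steps, so a locus at 1 step need not be directly adjacent.

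**Figure D5:**
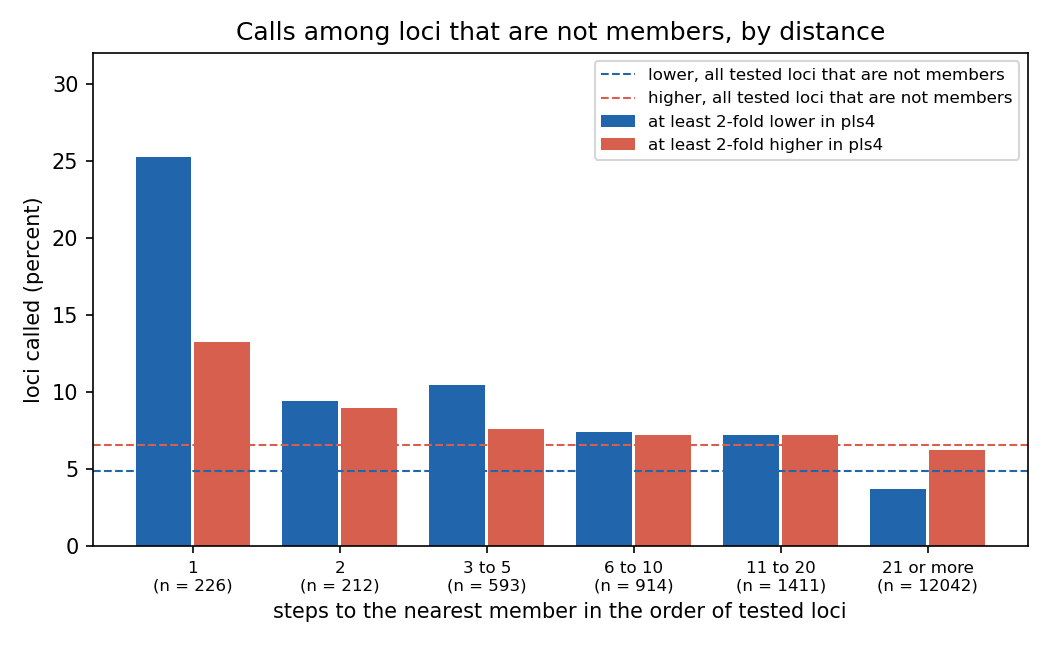
Percentage of tested loci called at least 2-fold lower (blue) or higher (red) in pls4 by limma, by the number of steps to the nearest member in the order of tested loci; dashed lines give the percentages over all 15398 tested loci that are not members. The bars for 1 step stand at 25.2% and 13.3%, and the bars for 21 steps or more at 3.69% and 6.22%.

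The share of lower calls was above that of the background on each of the 9 chromosomes. On chromosome 1, 14 of 58 neighbours were called at least 2-fold lower (24.1%, against 6.46% of its tested loci that are not members), on chromosome 2 10 of 30 (33.3%, against 5.42%), on chromosome 3 8 of 37 (21.6%, against 4.27%) and on chromosome 9 9 of 30 (30.0%, against 6.11%). Chromosomes 5 and 10 gave 4 of 20 each, against 5.41% and 5.61%. Chromosomes 4, 7 and 8 had fewer than 20 neighbours, with 1 of 12, 1 of 4 and 6 of 15, against 2.68%, 3.37% and 4.35%. The higher calls did not follow one order. On chromosome 9, 0 of 30 neighbours were called at least 2-fold higher (against 5.92%), on chromosome 4 3 of 12 were higher and 1 lower, and on chromosome 7 1 of 4 each way, while chromosome 1 gave 13 of 58 (22.4%, against 8.57%). Without the densest window of chromosome 1, an alternative chosen after seeing the data, 55 of 220 neighbours were lower (25.0%). Part of the lower neighbours were themselves silent at a lower wild type level. An FPKM of at least 1 in each wild type library and at most 0.5 in both pls4 libraries was found at 22 of the 226 neighbours (9.73%) and at 1.36% of all tested loci that are not members; the other 35 of the 57 lower neighbours were outside that definition.

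Some members stood close to loci of the opposite pattern. Within 10 listed loci of such a locus lay 8 of the 135 members (5.93%) and 303 of the 9504 other expressed loci (3.19%). The 8 members include Os08g0534900, Os08g0535050 and Os08g0535100, which lie near the same such locus, and the difference in share was not tested. Os10g0489650 stood at 36.9, 55.4 and 53.4 FPKM in wild type and 0 in both pls4 libraries, while Os10g0489500 beside it stood at 0, 0.13 and 0.03 in wild type and at 69.1 and 42.6 in pls4. Os02g0599400 stood at 18.9, 16.2 and 16.6 FPKM against 0 and 0, beside Os02g0599200 at 0.23, 0.10 and 0.20 against 5.45 and 7.24. In both places the signal of one locus was seen in one genotype and that of its neighbour in the other. On chromosome 8, Os08g0534900, Os08g0535050 and Os08g0535100 were within 6 listed loci of Os08g0534350, which stood at 0 in each wild type library and at 8.01 and 8.15 FPKM in pls4. Os08g0535000, which lies among these members, had the same pls4 values and stood at 22.1, 17.7 and 17.2 FPKM in wild type. Whether Os08g0534350 and Os08g0535000 share reads was not tested, so the signal of Os08g0534350 in pls4 may not be its own.

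A minority of members carried a form of identifier that the rule did not use. A number that is not a multiple of 100, the mark of a locus added to the annotation later, was carried by 21 of the 135 members (15.6%) and by 399 of the 9504 other loci expressed in wild type (4.20%). Over all listed loci, expressed or not, the share was 17.5%, close to that of the members. The difference was seen at each wild type level, with 11.1% of members against 6.61% of the others at a mean of 5 to 10 FPKM, 13.95% against 4.08% at 10 to 20, and 23.7% against 3.00% at 20 or more. Seen from the other side, 5.0% of the 420 expressed loci with such numbers were members, and 1.24% of the 9219 with multiples of 100. Of the 57 loci of the opposite pattern, 10 carried such numbers (17.5%). Os09g0319701, Os03g0382350, Os10g0489650 and Os03g0426350 are among the 15 highest members with such numbers.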

How the data were processed

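Leaf RNA libraries of wild type (3) and pls4 (2) rice were compared. The deposited values are FPKM, per the file headers, with 1 library per file. TopHat2 2.1.1 and build IRGSP-1.0 are named in the submitters' processing notes; no source used here gives the counting tool, annotation, gene lengths or scaling between libraries. Members and marker lists were chosen with earlier results of these data known; symbols of the markers come from recalled published pairs, not from the files. Loci were ordered by identifier, and 808 XLOC loci have no place in that order. The RefSeq gene table matched 1 of the 36475 identifiers and none of the members.

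Loci that reached an FPKM of 1 in 2 or more libraries were tested on log2(FPKM + 1) with limma (version 3.58.1; R version 4.3.3), a scale that understates changes of low genes, with a variance trend and Benjamini-Hochberg adjustment. A call needed an adjusted p under 0.05 and, where stated, a 2-fold change. The procedure was tested on simulated data. Text loci were the 15 highest members, runs of 3 or more, loci beside each threshold, neighbours of the top 5 and members of the densest window of 100 loci; others, the remaining runs among them, were chosen after seeing values. Alternatives were other thresholds, pseudocounts, filters and scalings, a replicate block, and leaving out each library. For the neighbours the members were kept fixed.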

Additional observations from a re-analysis of the deposited data

How the results depend on the processing

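The count of members (135) was 75 with a wild type minimum of 10 FPKM and 240 with a minimum of 2; it ranged from 139 to 144 when each library was left out. Members in runs (24) numbered 8 of 75 and 52 of 240 under these minimums, and 43 in the order of expressed loci. Chromosome 1 then held 1.58% and 3.23% of its expressed loci. With a pseudocount of 5, calls at least 2-fold fell to 670 lower and 657 higher over all loci and to 27 lower among the neighbours (11.9%, against 2.04%). Without a filter 33 of 239 neighbours were lower (13.8%, against 2.46%), and with FPKM of at least 5 in 2 libraries 913 loci were lower over all. Calls at least 2-fold higher ranged from 915 (without pls4 replicate 2) to 1427 over the fits that leave out 1 library. The share of nearest expressed neighbours that stayed expressed was 91.2% (against 99.1%) when staying meant 2 FPKM and 95.9% (against 99.5%) when it meant 10% of the wild type mean. Os05g0200500 changed sign, to -0.0499 with median ratio scaling and -0.0209 after quantile normalization, with no call in any of the fits. Where a shift does not follow from the threshold itself, the cause was not tested. With 1 pls4 library left out, the other is assumed to vary like wild type. Same-numbered libraries did not deviate together (r = -0.09 for number 1 and -0.14 for number 2), so the numbers were not taken to pair samples; with the replicate block 1425 loci were lower, 1400 higher, and 56 neighbours lower. Depth is unknown, so silence means at most 0.5 FPKM, not absence of the transcript.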
